A study of Mus musculus with 18 samples.

Results

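Homologous recombination and Fanconi anaemia genes were followed in small intestinal crypts of adult mice after induced loss of Prmt1. The 34 genes, chosen with earlier results of these data known, were taken by name from the deposited count table of 55335 genes. All 34 were among the 21349 genes that passed the filter on low counts. In KO crypts the levels of these genes were close to WT at day 2, and at day 7 16 of the 34 were lower and 2 were higher, where 10.2% and 7.11% of all genes tested were. At day 14 9 of the 34 were lower, beside 4.69% of all genes, and none was higher, beside 3.23% of all genes. Brca2, Rad51c, Fance, Rad50 and Rad51d showed the falls that remained whichever library was left out at day 7, with KO levels at 21.3% to 62.3% of WT. Within the same complexes other genes kept levels near WT, among them Nbn, Rad54l, Fancf and Fancm.

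Homologous recombination rebuilds a broken chromosome from its sister copy, and is used mainly in cells that are copying or have copied their DNA. Nucleases first trim the break to single-stranded DNA, and BRCA1 with its partners and BRCA2 then prepare that strand for pairing with the matching sequence of the sister. The Fanconi pathway acts on covalent links between the DNA strands: a core complex attaches ubiquitin to the FANCD2 and FANCI pair, which opens the way for cutting and for repair by recombination. ATR and CHK1 slow replication and the cell cycle while this work is done. Crypts hold the stem and progenitor cells whose divisions renew the intestinal epithelium.

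KO mice carried PRMT1 fl/fl, that is LoxP sites on both copies of Prmt1, together with Vil-CreERT2, a Cre recombinase driven by the villin promoter of the intestinal epithelium and active only with tamoxifen. WT mice were PRMT1 fl/fl littermates without the Cre, so they carried the LoxP sites and received tamoxifen too. Mice of 8 to 12 weeks were injected with 2 mg tamoxifen daily, and crypts were collected 2, 7 and 14 days after the first injection, with 2 injections before day 2 and 5 before days 7 and 14. There were 3 mice and 3 total RNA libraries in each of the 6 groups, and no mouse was sampled more than once. No group without tamoxifen and no group with the Cre alone was included. Library totals ran from 12844642 to 31493484 reads assigned to genes, and the count of a single member in a library ran from 3 to 2472. Prmt1 (ENSMUSG00000109324.2) was lower in every KO library than in every WT library of the same day, at 54.1%, 66.4% and 60.9% of the WT mean at days 2, 7 and 14. Epithelial markers were abundant in all 18 libraries, with Epcam at 757 to 1550 CPM, the gene's counts relative to the scaled total of its library. The immune marker Ptprc was at 11.2 to 51.9 CPM and the fibroblast marker Col1a1 at 1.6 to 21.9 CPM.

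Many genes of DNA replication and repair are switched on by E2F factors as cells enter S phase, and the letters that E2F reads were looked for in the promoters. RefSeq promoter windows (GRCm38.p6, 250 bases before to 50 after the start) were at hand for 27 of the 34 genes, all except Rad51d, Rad50, Nbn, Exo1, Xrcc2, Rad54b and Fancd2. TTCCCGC or TTTGGCGC, on either strand, was present in 13 of the 27 (48.1%) and in 5.79% of the 27025 genes of the same table. A comparable share was found among replication genes, 15 of 30 (50%). Lower shares were found among further recombination and Fanconi genes, 11 of 53 (20.8%), and non-homologous end joining genes, 3 of 13 (23.1%). None of 22 mitosis genes had these letters. The cell cycle element TTTGAA, on either strand, had the reverse pattern, with 3 of the 27 (11.1%), 20.2% of all genes and 16 of 22 mitosis genes (72.7%). CCAAT, on either strand, was in 18 of the 27 and in 41.1% of all genes, and it was in 6 of the 13 genes called lower at day 7 that had a window and in 12 of the other 14, a split looked at after the calls were known and not tested. A match is only a run of letters, and the E2F letters were found about as often in the genes that fell as in the rest, in 6 of the same 13 and in 7 of the other 14. The matches that lay before the start and in no annotated exon belonged to 4 genes, shown here 5′ to 3′ on the strand of the gene with the E2F letters, or their reverse complement, in capitals. Bard1 and Brca2 were called lower at day 7 and Chek2 and Fancb were not.
Bard1, chr1:71103154-71103200, minus strand: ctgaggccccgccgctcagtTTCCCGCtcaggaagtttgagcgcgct
Brca2, chr5:150522433-150522479, plus strand: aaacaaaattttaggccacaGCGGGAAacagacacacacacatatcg
Chek2, chr5:110839811-110839857, plus strand: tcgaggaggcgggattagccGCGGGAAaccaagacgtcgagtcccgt
Fancb, chrX:164980400-164980446, plus strand: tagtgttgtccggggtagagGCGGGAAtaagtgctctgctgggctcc

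In WT crypts the 34 genes differed over a wide range in level per kilobase of exon. Over the 9 WT libraries Rad50 was at 8.16 ± 0.633 CPM per kb (SD, n = 9), Atm at 8.12 ± 0.92 and Nbn at 7.79 ± 0.932, and these ranges overlapped. Brca1 stood at 4.04 ± 0.566 and Brca2 at 2.73 ± 0.261 CPM per kb, with no overlap between the highest Brca2 library (3.2) and the lowest Brca1 library (3.33). Xrcc2 (1.02 ± 0.116) and Rad51c (0.323 ± 0.0757) were the lowest of the 34. Rad51c had only 20 to 51 counts in a WT library and 3 to 40 in a KO library, so its values rest on few reads. The 34 genes were also compared between days in WT crypts. At day 7 against day 2 none of the 34 genes passed an adjusted p of 0.05 in edgeR, against 0.553% of all genes, and 3 had an unadjusted p under 0.05. At day 14 against day 2 none passed, against 1.61% of all genes, again with 3 at an unadjusted p under 0.05. Those 3 were Xrcc3, Fancc and Fance on both occasions, and in WT crypts they were 0.44 to 0.59 higher on the log2 scale at the later days. DESeq2 called 3 of the 34 at day 7 and 1 at day 14 in these WT comparisons. The enterocyte markers of WT crypts were all 12 below their day 2 level, with medians of -0.98 at day 7 (none called) and -1.2 at day 14 (3 called lower), and the part of this in the changes of the KO effect from day 2 was not tested.

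At day 2 none of the 34 genes was called between KO and WT in edgeR or in DESeq2, and none had an unadjusted p under 0.05 in either. The background was 0.0328% of all genes. Log2 fold changes ran from -0.33 (Rad51c) to 0.29 (Fancf), with a median of -0.01. Rad51ap1 was the only member with all KO libraries below all WT libraries and Fancf the only one with all KO above all WT, where 3.86% and 4.3% of all genes showed those orders.

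At day 7 16 genes (47.1%) were called lower in KO at an adjusted p under 0.05, against 10.2% of all genes tested. Only Brca1 and Chek1 (5.88%) were called higher, against 7.11% of all genes. The median log2 fold change of the 34 was -0.39, beside 0.02 over all genes, and 28 of the 34 were below zero. For 18 genes the highest KO library was under the lowest WT library and for 2 the reverse held, where 17.7% and 15.9% of all genes showed these orders. The number of genes called lower depended on single libraries. It dropped to 5 when KO day 7 replicate 1 was left out, to 9 when WT day 7 replicate 1 was, and to 10 when either WT day 7 replicate 2 or its fellow replicate 3 was. Genes called higher numbered 3 in the absence of KO day 7 replicate 1, 0 in that of WT day 7 replicate 3, and 1 with any other library of that day removed. KO day 7 replicate 1 had the lowest median of the 34 genes, -0.62 from the WT mean of the day on the log2 scale, with -0.34 and -0.26 in the other KO libraries. The same library also had the lowest median of the stem cell markers (-1.28, others -0.7 and -0.42), of the Paneth cell markers (-3.1, others -1.59 and -1.55) and of the tuft cell markers (-1.1, others -0.24 and -0.31), and the highest of the enterocyte markers (1.05, others 0.54 and 0.32). Its medians of S phase genes (-0.44, others 0.02 and -0.26) and mitosis genes (-0.36, others 0 and -0.32) were the lowest as well. So were those of further recombination and Fanconi genes (-0.23, others -0.05 and -0.13) and of non-homologous end joining genes (-0.24, others both -0.05). The 5 genes called lower without KO day 7 replicate 1 were Brca2, Rad51c, Rad51d, Fance and Rad50, and these were called in every fit that left out a library of day 7. Leaving out WT day 7 replicate 1 lost the calls of Brip1, Rad51b, Rad51ap1, Fancc, Fancg, Fancl and Fancd2. Leaving out WT day 7 replicate 2 lost those of Bard1, Brip1, Rad51b, Rad51ap1, Fancl and Atr, and leaving out WT day 7 replicate 3 those of Brip1, Fancc, Fancg, Fancl, Fancd2 and Mre11a. When only the 6 libraries of day 7 were fitted, 9 genes were called lower and 2 higher.

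At day 14 9 genes (26.5%) were called lower, against 4.69% of all genes. None was called higher in edgeR or in DESeq2, against 3.23% of all genes. An unadjusted p under 0.05 was reached by 18 of the 34, with Chek1 the only one of them above zero. The median log2 fold change was -0.30, beside 0.00 over all genes, and 30 of the 34 were below zero. KO and WT libraries did not overlap for 17 genes in the lower direction and 2 in the higher, beside 14.1% and 12.4% of all genes. The 9 genes called lower at day 14 had all been called lower at day 7: Brca2, Bard1, Rad51c, Rad51d, Rad51ap1, Fance, Fancd2, Mre11a and Rad50. With 1 library left out the count ran from 6, without KO day 14 replicate 3 or WT day 14 replicate 1, to 10. With 3 libraries a group an exact permutation test of a single gene cannot give a p below 0.1, so the adjusted p values here come from the model over all genes.

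**Figure D1:**
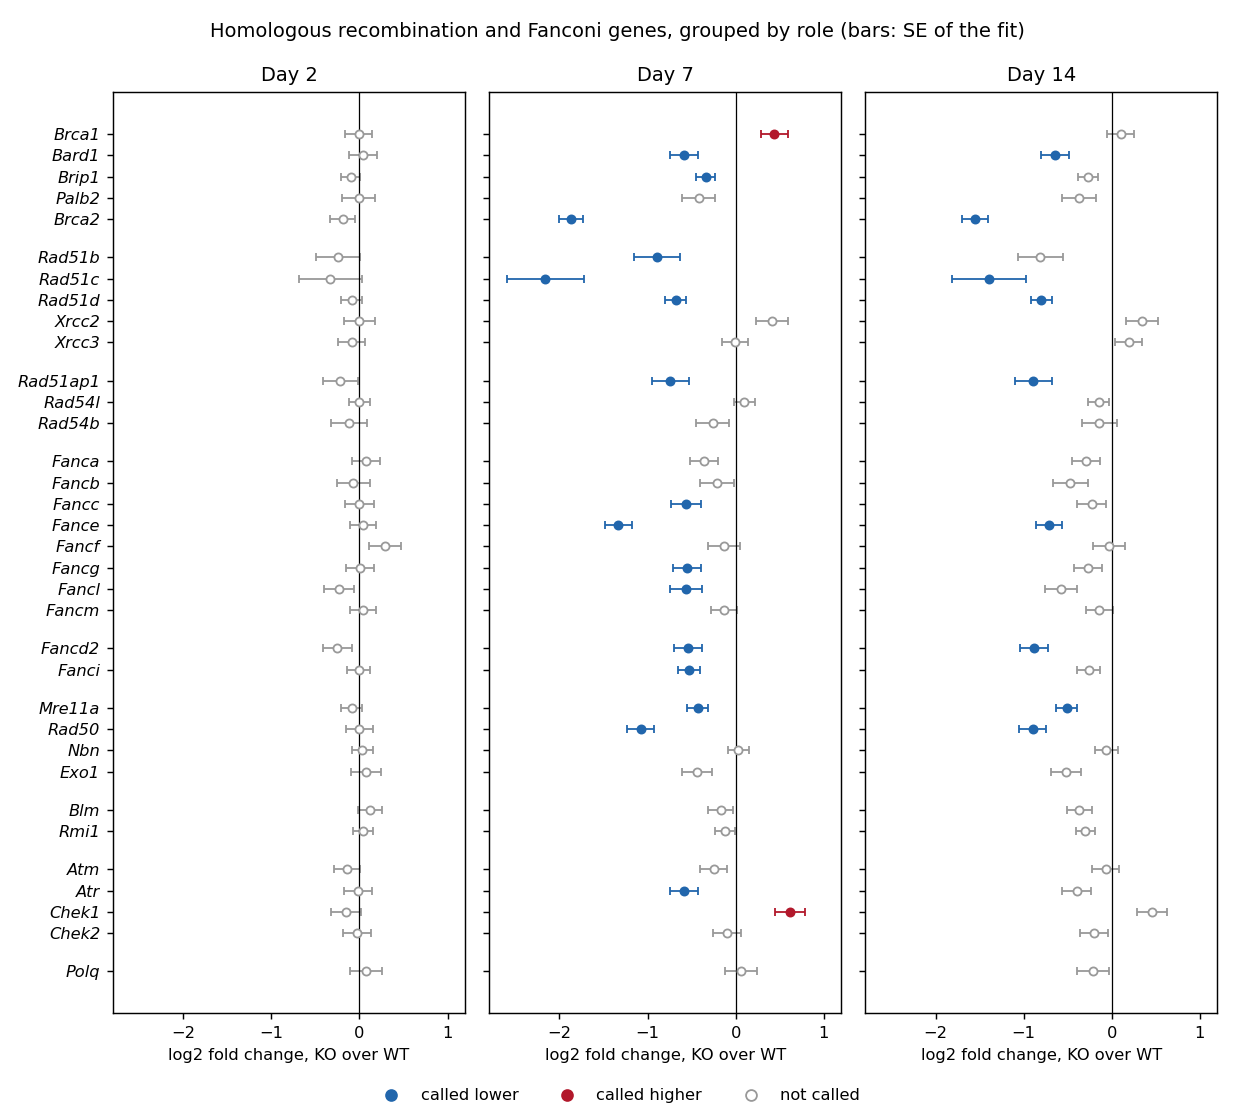
Log2 fold change of KO over WT (x axis) for each of the 34 genes, grouped by role, at days 2, 7 and 14, with bars for the SE of the fit and filled points for genes called at an adjusted p under 0.05. No point is filled at day 2, 16 are filled lower and 2 higher at day 7, and 9 are filled lower at day 14.

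The BRCA1 and BRCA2 complexes act on trimmed ends. Brca2 (ENSMUSG00000041147.10, mm10 chr5:150522630-150570329), a tumour suppressor that acts on single-stranded DNA, read 36.1, 43.7 and 37.3 CPM in the WT libraries of day 7 and 9.65, 11.6 and 10.7 CPM in the KO libraries. At day 14 Brca2 read 38.2, 33.1 and 33.4 CPM in WT and 13.6, 12.5 and 9.58 CPM in KO. Every KO library of these days lay far below every WT library, while at day 2 KO (29 to 38 CPM) and WT (34 to 40 CPM) overlapped. As log2 of KO over WT, Brca2 was at -1.87 (SE 0.14, adjusted p = 1.11e-07) in the first week and at -1.55 (SE 0.15, adjusted p = 2.83e-06) in the second. Its promoter, printed above, was among those with E2F letters.

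Bard1 (ENSMUSG00000026196.7), the partner with which BRCA1 forms a ubiquitin ligase, was at 15.5, 17.6 and 15.4 CPM in WT and 8.72, 12.3 and 11.2 CPM in KO at day 7. Day 14 gave 15.3, 18.4 and 16.2 CPM in WT and 12, 10 and 9.98 CPM in KO. Groups did not overlap on either day, and the log2 fold change was -0.59 (SE 0.16, adjusted p = 0.0141) and then -0.64 (SE 0.16, adjusted p = 0.0162). With a library of the day left out the Bard1 call was lost in 2 of 6 fits at day 7 (adjusted p up to 0.128) and in 3 of 6 at day 14 (up to 0.0968; without KO day 14 replicate 2 or 3 or WT day 14 replicate 2). Brca1 itself (ENSMUSG00000017146.12) went the other way. At day 7 it was at 33.9, 32.1 and 32.7 CPM in WT and 38.7, 48 and 47.5 CPM in KO, or 0.44 as log2 of KO over WT, with an SE of 0.15 and an adjusted p = 0.0456. The call was lost when any library of that day other than KO day 7 replicate 1 was left out. At day 14 Brca1 overlapped between WT (28.4 to 44.2 CPM) and KO (33.6 to 43.4 CPM), with a log2 fold change of 0.10 (adjusted p = 0.772).

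Brip1, the helicase that binds BRCA1, was at 20, 20.6 and 21.3 CPM in WT and at 16.1, 16.3 and 16.3 CPM in KO at day 7. This was a small but even difference, -0.34 on the log2 scale (SE 0.11, adjusted p = 0.0343), and the call was lost without any 1 of the day 7 libraries. At day 14 Brip1 was -0.27 (adjusted p = 0.149). Palb2, which joins BRCA1 to BRCA2, was at -0.42 (adjusted p = 0.133) and -0.37 (adjusted p = 0.275) and was called on neither day. In each WT library Brca2 had 0.541 to 0.851 of the CPM per kb of Brca1. In KO libraries this ratio was 0.569 to 0.652 at day 2, 0.141 to 0.156 a week after induction and 0.158 to 0.233 at day 14. The ratio of Bard1 to Brca1 was 0.523 to 0.858 over the WT libraries, 0.614 to 0.754 in KO at day 2, 0.339 to 0.386 in KO at day 7 and 0.396 to 0.451 in KO at day 14. These and the other ratios given here, 7 pairs in all, were chosen after the values were seen and are given without a test.

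**Figure D2:**
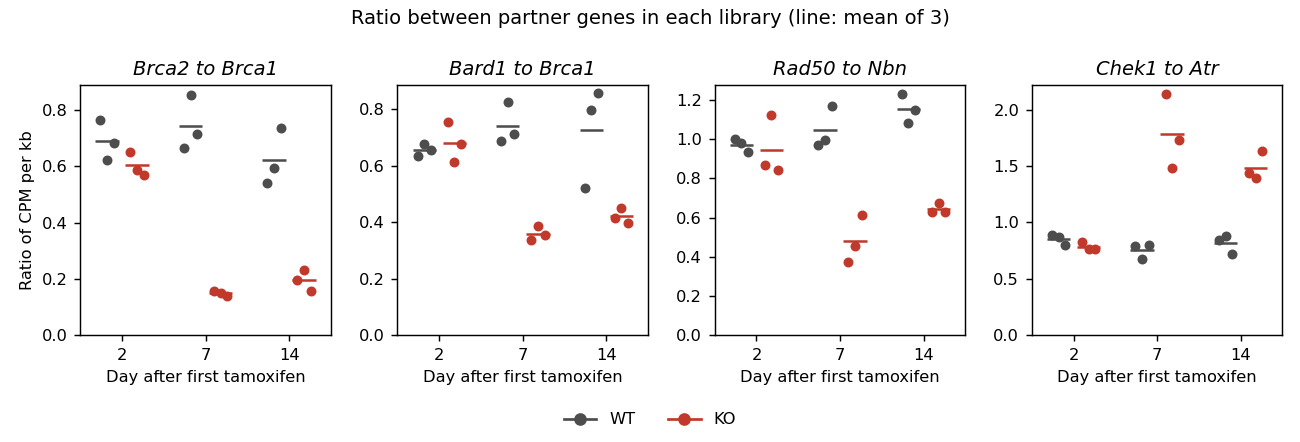
Ratio of CPM per kb between partner genes (y axis) in each library by day (x axis), WT grey and KO red, with a line at the mean of 3. The KO points of Brca2 to Brca1 sit at 0.141 to 0.233 at days 7 and 14, below all WT points, those of Rad50 to Nbn at 0.376 to 0.675, also below, and those of Chek1 to Atr at 1.39 to 2.14, above all WT points.

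Rad51b, Rad51c, Rad51d, Xrcc2 and Xrcc3 are related genes whose products work together in small complexes. Rad51c (ENSMUSG00000007646.13, mm10 chr11:87376645-87404954), which sits in both complexes, had 34, 20 and 22 counts in the WT libraries of day 7 and 5, 11 and 3 counts in KO. These are 1.22, 1.28 and 0.964 CPM against 0.222, 0.386 and 0.131 CPM. At day 14 it had 1.66, 1.15 and 1.48 CPM in WT and 0.264, 0.442 and 0.944 CPM in KO. KO and WT were apart on both days, but the KO values of day 14 spread over more than a 3-fold range. On the log2 scale KO was at -2.16 from WT (SE 0.44, adjusted p = 0.00226) on the earlier day and at -1.39 (SE 0.42, adjusted p = 0.0475) on the later, and the later call was lost when any library of that day other than KO day 14 replicate 3 was left out.

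Rad51d (ENSMUSG00000018841.17, mm10 chr11:82876434-82890614), whose product sits in a complex with those of Rad51c and Xrcc2, was measured with many more reads. At day 7 it was at 15.5, 16.7 and 17.3 CPM in WT and 10.4, 9.41 and 11 CPM in KO. A week later it was at 18.4, 15.6 and 15.8 CPM in WT and 10, 8.45 and 10.1 CPM in KO. All 6 KO values lay below all 6 WT values, and the log2 fold changes were -0.68 (SE 0.12, adjusted p = 0.000721) and -0.80 (SE 0.12, adjusted p = 0.000457). Rad51b was at 7.34, 7.8 and 6.04 CPM in WT and 2.22, 4.49 and 4.63 CPM in KO at day 7, with KO day 7 replicate 1 the lowest. That is -0.89 on the log2 scale (SE 0.26, adjusted p = 0.0206), while day 14 gave -0.81 (SE 0.26, adjusted p = 0.0619), which missed the threshold although KO (3.37 to 6.37 CPM) stayed below WT (6.99 to 8.25 CPM). Rad51b was called at day 14 in 2 of 8 other settings, DESeq2 and no filter on low counts. Xrcc2 and Xrcc3, the remaining genes of this family, were not called, at 0.41 (adjusted p = 0.118) and -0.01 (adjusted p = 0.966) at day 7 and 0.34 and 0.19 at day 14. Thus of 5 genes of the family 3 were called lower at day 7, where 10.2% of all genes were, and Rad51c and Rad51d kept that call with each library left out while Rad51b lost it in 3 of 6 fits (adjusted p up to 0.134). Rad51d to Xrcc2 in CPM per kb went from 3.7 to 5.04 over the WT libraries to 1.58 to 2.57 in the KO libraries of days 7 and 14.

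The products of Rad51ap1, Rad54l and Rad54b help the strands to pair. Rad51ap1 (ENSMUSG00000030346.16) was at 10.6, 11.1 and 9.59 CPM in WT and 3.96, 7.3 and 7.47 CPM in KO at day 7. At day 14 it was at 13.8, 9.56 and 9.69 CPM in WT and 6.9, 4.92 and 5.8 CPM in KO. The groups were apart on both days, at -0.74 (SE 0.21, adjusted p = 0.0179) and -0.89 (SE 0.21, adjusted p = 0.0119) on the log2 scale. On each day the Rad51ap1 call was lost in 3 of the 6 fits without a library of that day, with adjusted p up to 0.123 at day 7 and 0.0729 at day 14 (without KO day 14 replicate 2 or 3 or WT day 14 replicate 1). Rad54l, the translocase, was at 0.10 (adjusted p = 0.608) and -0.15 (adjusted p = 0.505), and Rad54b at -0.26 (adjusted p = 0.401) and -0.14 (adjusted p = 0.744), with neither called.

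The Fanconi core complex is the ubiquitin ligase of the pathway, with FANCL as its catalytic subunit, FANCE as the link to FANCD2 and FANCM as the anchor on DNA. All 8 of its genes measured here had a log2 fold change below zero on both days, and 4 were called lower at day 7, where 10.2% of all genes were, and 1 at day 14, beside 4.69%. Of the 4, Fance kept its day 7 call with each library left out and Fancc, Fancg and Fancl did not. Fance (ENSMUSG00000007570.16, mm10 chr17:28313519-28326572) was at 13, 15.5 and 14.4 CPM in WT and 4.8, 6.67 and 5.5 CPM in KO at day 7. Those of day 14 were 15.6, 15.1 and 12.9 CPM in WT and 8.28, 8.64 and 9.78 CPM in KO. No KO value of these days reached a WT value, and KO was at 39.6% of the WT mean at day 7 and at 61.2% at day 14, a change between days that was not called (adjusted p = 0.999). The log2 fold changes were -1.33 (SE 0.15, adjusted p = 1.07e-05) and -0.71 (SE 0.15, adjusted p = 0.00594).

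Fancc read 24, 22.6 and 24.4 CPM in WT and 11.5, 17.1 and 19.6 CPM in KO at day 7, giving -0.56 as log2 of KO over WT, with an SE of 0.17 and an adjusted p = 0.0261, and at day 14 -0.23 (adjusted p = 0.485). Fancl read 8.85, 9.33 and 8.15 CPM in WT and 4.89, 6.74 and 6.2 CPM in KO at day 7, giving -0.56 as log2 of KO over WT, with an SE of 0.18 and an adjusted p = 0.0344, while -0.58 (SE 0.18, adjusted p = 0.0506) at day 14 fell just short of the threshold. Of 8 other settings only the DESeq2 test called Fancl at day 14 (adjusted p = 0.0392). Fancg read 7.48, 6.39 and 7.71 CPM in WT and 4.71, 4.91 and 5.11 CPM in KO at day 7, giving -0.55 as log2 of KO over WT, with an SE of 0.16 and an adjusted p = 0.0189, and at day 14 -0.27 (adjusted p = 0.362). KO and WT did not overlap at day 7 for any of these, and their calls were lost in 3 to 5 of the 6 fits that left out a library of that day. Fanca (-0.36), Fancb (-0.21), Fancf (-0.13) and Fancm (-0.13) were not called at day 7. At day 14 they were at -0.29, -0.47, -0.03 and -0.14.

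FANCD2 and FANCI are the pair that the core complex marks. Fancd2 (ENSMUSG00000034023.16) was at 17.2, 16 and 17.8 CPM in WT and 9.07, 13.3 and 12.7 CPM in KO at day 7. At day 14 it was at 19, 20.2 and 18.4 CPM in WT and 11.2, 9.59 and 10.5 CPM in KO, and the groups did not overlap on either day. This came to -0.54 (SE 0.16, adjusted p = 0.0255) and then -0.88 (SE 0.16, adjusted p = 0.00197) as log2 of KO over WT, and the change between these days was not called (-0.34, SE 0.23, adjusted p = 0.999). Fanci was at 19.3, 21.3 and 21.7 CPM in WT and 13.4, 14.3 and 15.5 CPM in KO at day 7, giving -0.53 as log2 of KO over WT, with an SE of 0.13 and an adjusted p = 0.00864. At day 14 Fanci was -0.26 (adjusted p = 0.273), and KO (12.8 to 16.2 CPM) touched WT (16.2 to 18.9 CPM). The ratio of Fancd2 to Fanci in CPM per kb overlapped between KO (0.493 to 0.679) and WT (0.546 to 0.646) at day 7, and at day 14 it was 0.485 to 0.545 in KO and 0.733 to 0.825 in WT.

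MRE11, RAD50 and NBS1, the product of Nbn, form the complex that holds broken ends and begins their trimming, which EXO1 extends. Rad50 (ENSMUSG00000020380.16, mm10 chr11:53649519-53707319) was at 42.7, 42.5 and 37.4 CPM in WT and 15.2, 20 and 22.7 CPM in KO at day 7. The day 14 values were 49.7, 45.7 and 41.7 CPM in WT and 24.6, 25 and 23.7 CPM in KO. These groups were wide apart, whereas at day 2 a KO library had the highest Rad50 value of that day (56.4 CPM). The log2 fold changes were -1.08 (SE 0.15, adjusted p = 6.18e-05) and -0.90 (SE 0.15, adjusted p = 0.000715). Mre11a was at 26.3, 28.2 and 29.3 CPM in WT and 18.2, 20.9 and 23 CPM in KO at day 7 and at 32.4, 31.5 and 28.8 CPM in WT and 24.3, 22.6 and 18.2 CPM in KO at day 14. Its differences were smaller than those of Rad50 but without overlap, -0.43 (SE 0.12, adjusted p = 0.0173) and -0.51 (SE 0.12, adjusted p = 0.0119). The Mre11a call was lost in 2 of 6 such fits on each day (adjusted p up to 0.137 and 0.102; at day 14 without KO day 14 replicate 3 or WT day 14 replicate 1), with only the libraries of the groups compared (0.0543 and 0.0537) and, at day 7, with no filter on low counts (0.0548).

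Nbn was at 20.7, 20.1 and 15.1 CPM in WT and 19.1, 20.7 and 17.4 CPM in KO at day 7, giving 0.03 as log2 of KO over WT, with an SE of 0.12 and an adjusted p = 0.891, and -0.06 (SE 0.13) at day 14. The 3 subunits of 1 complex therefore had unequal values, and the ratio of Rad50 to Nbn in CPM per kb was 0.932 to 1.23 over the WT libraries, 0.843 to 1.12 in KO at day 2, 0.376 to 0.614 in KO at day 7 and 0.628 to 0.675 in KO at day 14. Rad50 to Mre11a was 1.41 to 1.79 over the WT libraries, 0.92 to 1.09 in KO at day 7 and 1.12 to 1.44 in KO at day 14, under the WT libraries of the same day (1.6 to 1.69) but reaching the lowest WT value of day 7. Exo1 was at -0.44 (adjusted p = 0.0806) and -0.52 (adjusted p = 0.0723), short of the threshold on both days. Blm and Rmi1, whose products untangle joined chromosomes after strand exchange, were at -0.17 and -0.12 at day 7 and at -0.37 (adjusted p = 0.118) and -0.30 (adjusted p = 0.095) at day 14. Polq, the polymerase of a back-up end joining route, was at 0.06 (adjusted p = 0.862) and -0.21 (adjusted p = 0.555).

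**Figure D3:**
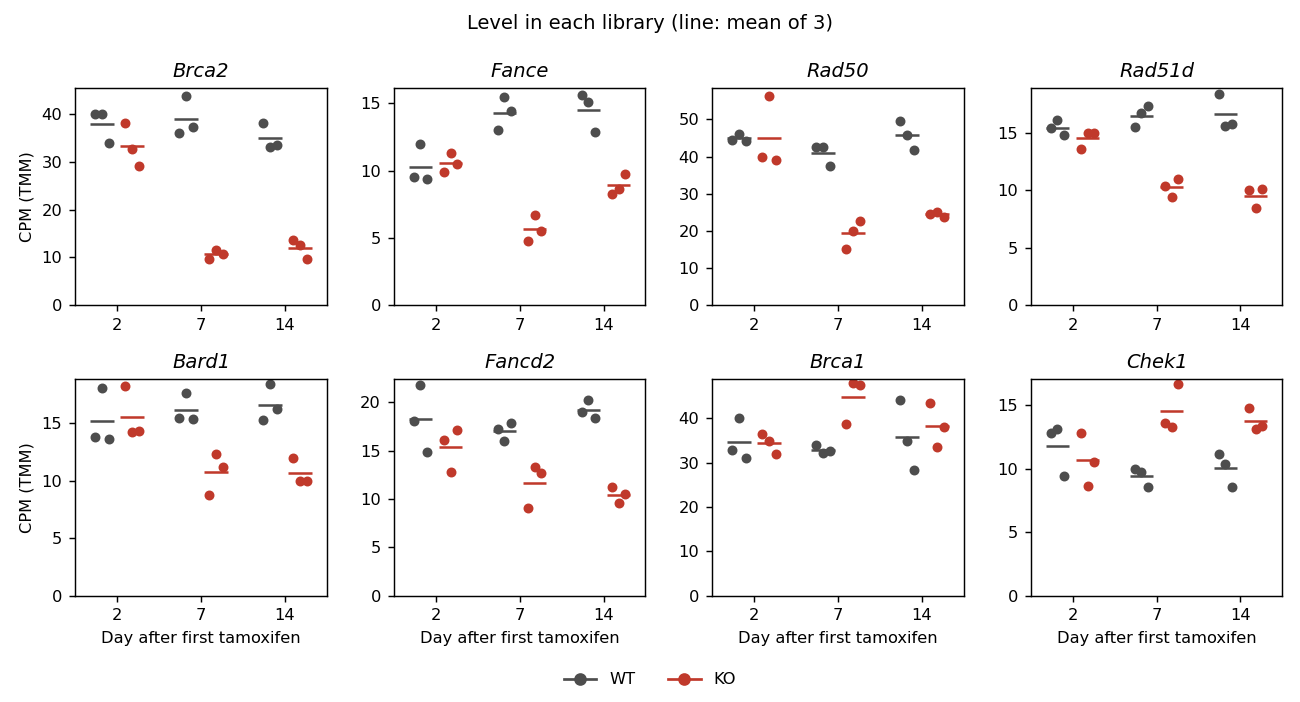
CPM after TMM scaling (y axis, from 0) of 8 of the genes in each library by day (x axis), WT grey and KO red, with a line at the mean of 3. At days 7 and 14 all KO points of Brca2, Fance, Rad50, Rad51d, Bard1 and Fancd2 lie below the WT points, and those of Chek1 lie above.

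The checkpoint kinases sense the damage and pass it on, ATM and CHK2 for double-strand breaks and ATR and CHK1 for single-stranded DNA at stalled forks. Chek1 (ENSMUSG00000032113.16, mm10 chr9:36708482-36727065) was at 9.97, 9.78 and 8.54 CPM in WT and 13.6, 13.3 and 16.7 CPM in KO at day 7. The next week gave 11.2, 10.4 and 8.57 CPM in WT and 14.8, 13.1 and 13.4 CPM in KO. The KO values were above the WT values on both days, at 0.62 (SE 0.17, adjusted p = 0.0138) and 0.46 (SE 0.17, adjusted p = 0.107) on the log2 scale, and only the first was called. Without WT day 7 replicate 3 the day 7 adjusted p was 0.0625. Atr went down, from 64.5, 73.4 and 54.3 CPM in WT to 32.2, 45.9 and 49.3 CPM in KO at day 7, giving -0.59 as log2 of KO over WT, with an SE of 0.16 and an adjusted p = 0.0153. At day 14 Atr was at -0.40 (adjusted p = 0.14), with KO (42.1 to 52.2 CPM) below WT (60.7 to 67.2 CPM). Chek1 to Atr in CPM per kb was 0.679 to 0.887 over the WT libraries and 1.39 to 2.14 in the KO libraries of days 7 and 14. Atm, at -0.25 (adjusted p = 0.278) and -0.07, and Chek2, at -0.10 and -0.20, were not called.

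The change of the KO effect between days was tested as an interaction. From day 2 to day 7 the effect moved down for 3 genes (8.82%), against 3.04% of all genes: Brca2 by -1.68 (SE 0.20, adjusted p = 0.000105), Fance by -1.37 (SE 0.21, adjusted p = 0.0011) and Rad50 by -1.08 (SE 0.21, adjusted p = 0.0056), all log2. The count stayed at 3 with any of the 18 libraries left out, and 13 genes had an unadjusted p under 0.05. Rad51d (-0.60, adjusted p = 0.0539), Chek1 (0.77, adjusted p = 0.0705) and Rad51c (-1.83, adjusted p = 0.0776) were near the threshold. From day 7 to day 14 none of the 34 genes was called in edgeR or DESeq2, as 0 of all genes were (0% of 21349, with 953 at an unadjusted p under 0.05), and the only member with an unadjusted p under 0.05 was Fance, whose effect was 0.62 (SE 0.21) higher on the log2 scale at day 14. Across the 34 genes the effects of the 2 days, from different mice, had a Pearson r of 0.91 and a Spearman rho of 0.87, and 30 had the same sign; members measured in the same libraries share their depth and scaling.

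**Figure D4:**
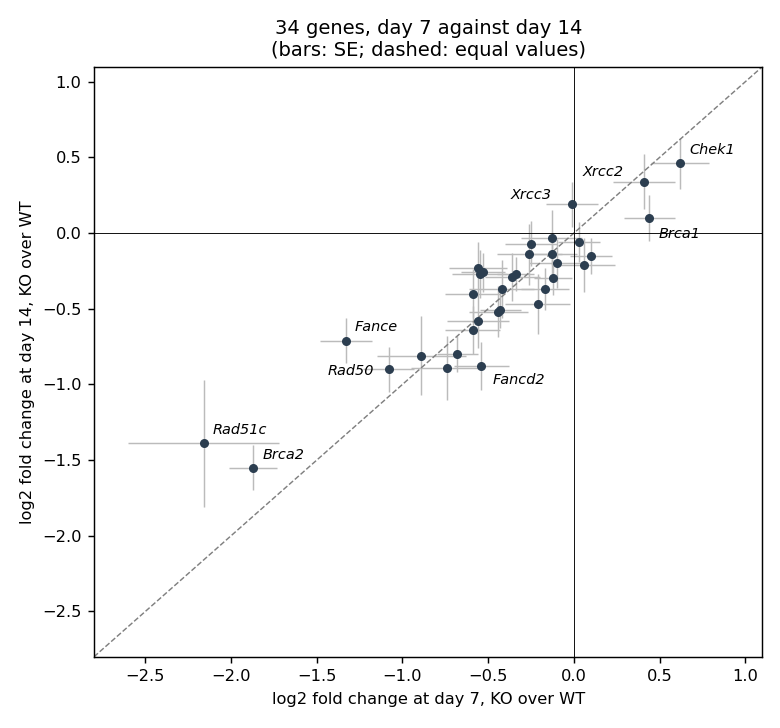
Log2 fold change of KO over WT at day 7 (x axis) and day 14 (y axis) for the 34 genes, with SE bars and a dashed line of equal values. Brca2 and Rad51c lie farthest down on both axes, Fance lies above the dashed line, and Chek1, Xrcc2 and Brca1 are above zero on both.

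Other genes of homologous recombination and the Fanconi pathway were also lower in part, and their difference from the 34 genes was not tested. Of 61 further genes of these pathways, 12 were called lower and 2 higher at day 7, with a median log2 fold change of -0.14, beside 10.2% and 7.11% of all genes. At day 14 7 were lower and 1 was higher, with a median of -0.17, beside 4.69% and 3.23%. Mnd1, known from meiotic strand exchange, was at -2.64 (SE 0.36, adjusted p = 5.73e-05) and Parpbp, an inhibitor of homologous recombination, at -1.32 (SE 0.16, adjusted p = 2.29e-05) at day 7. Named after their values were seen, the 2 that rose at day 7 were Mad2l2 (0.82, adjusted p = 0.012), a shieldin and polymerase zeta subunit, and Eme2 (0.67, adjusted p = 0.00144), a nuclease subunit, and Eme2 was the 1 that rose at day 14 (0.57, adjusted p = 0.00937). Of 17 genes of non-homologous end joining, 3 were called at day 7, all lower, Shld2 (-0.62), Prkdc (-0.47) and Xrcc6 (-0.41), and the median was -0.10. At day 14 only Shld2 was called (-0.67, adjusted p = 0.0169).

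Genes of S phase and mitosis, and markers of crypt cell types, were measured in the same libraries. Of 35 S phase genes 5 were called at day 7, all lower, where 10.2% of all genes were, with a median of -0.22, and Rfc4 (-0.84) and Rfc3 (-0.61), subunits of the clamp loader, had the largest changes. At day 14 3 were called, all lower, 32 of the 35 were below zero and the median was -0.26, beside -0.30 for the recombination and Fanconi genes, with library medians of the S phase genes at -0.29 to -0.2 in KO and -0.21 to 0.19 in WT. Of 27 mitosis genes 4 were lower and 1, Plk1, named after its value was seen, was higher at day 7 (median -0.23), with Aurkb (-0.58), a kinase of chromosome segregation, and Kif11 (-0.56), a spindle motor, the largest. At day 14 14 mitosis genes were lower, beside 4.69% of all genes, with a median of -0.53. By library the median of the 34 genes was -0.62 to -0.26 from the WT mean in KO at day 7, clear of WT (0 to 0.03). That of the S phase genes was -0.44 to 0.02 in KO and -0.08 to 0.06 in WT, and that of the mitosis genes -0.36 to 0 in KO and -0.01 to 0.02 in WT, so both of these overlapped. At day 14 the mitosis genes were clear of WT, at -0.55 to -0.41 in KO and -0.18 to 0.11 in WT, and the 34 genes were at -0.41 to -0.17 in KO and -0.09 to 0.12 in WT.

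Stem cell markers had 12 of 18 genes called lower at day 7 (median -0.76), beside 10.2% of all genes, with Lgr5 at -1.59 (adjusted p = 0.00131) and Tnfrsf19 at -1.45 (adjusted p = 0.00296). All 10 Paneth cell markers were lower (median -1.87), with Defa17 at -2.27 and Ang4 at -2.2. The library medians at day 7 were -1.28 to -0.42 in KO for the stem and -3.1 to -1.55 for the Paneth cell markers, and the summed level of the stem markers was 848 to 1660 CPM in KO and 2420 to 3080 CPM in WT. At day 14, when 4.69% of all genes were called lower, 4 stem cell markers were, 14 of the 18 were below zero (median -0.35), and the KO medians (-0.41 to -0.24) stayed under those of WT (-0.07 to 0.09). Of the Paneth cell markers 2 were called lower at day 14, all 10 were below zero (median -1.19), and the KO medians were -1.33 to -0.86 against -0.47 to 0.7 in WT. All 10 enteroendocrine markers were higher on both days, with medians of 1.32 and 1.31, and Pyy (2.48) and Tph1 (1.85) were the largest at day 7.

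Among other cell types at day 7, 11 of 12 enterocyte markers were above zero (median 0.66), with Fabp1 (1.55) called among 2 higher and Lct (-1.42) called lower, and the KO medians were 0.32 to 1.05 against -0.16 to 0.03 in WT. At day 14 10 of the 12 enterocyte markers were above zero (median 0.69) and 1 was called higher, with medians of 0.41 to 1.18 in KO and -0.75 to 0.57 in WT, which overlap. All 5 tuft cell markers tested were below zero (median -0.48), with Dclk1 (-1.04) called. Stromal markers were all above zero (11 of 11, median 0.45), with Pecam1 (1.29) and Vim (1.08) called, and their summed level was 52.3 to 105 CPM in KO and 34.1 to 71.1 CPM in WT, which overlap. Goblet cell markers went both ways (median 0.11), with 3 of 8 called lower, among them Spink4 (-0.93) and Fcgbp (-0.82). The summed level of 12 immune markers was 89.6 to 180 CPM in KO and 73.5 to 153 CPM in WT, none of them was called, and no defining immune or stromal marker was at 0 in a library. In crypts, fewer cells of a type and less RNA per cell cannot be told apart, and the part of these shifts in the values of the 34 genes was not tested.

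**Figure D5:**
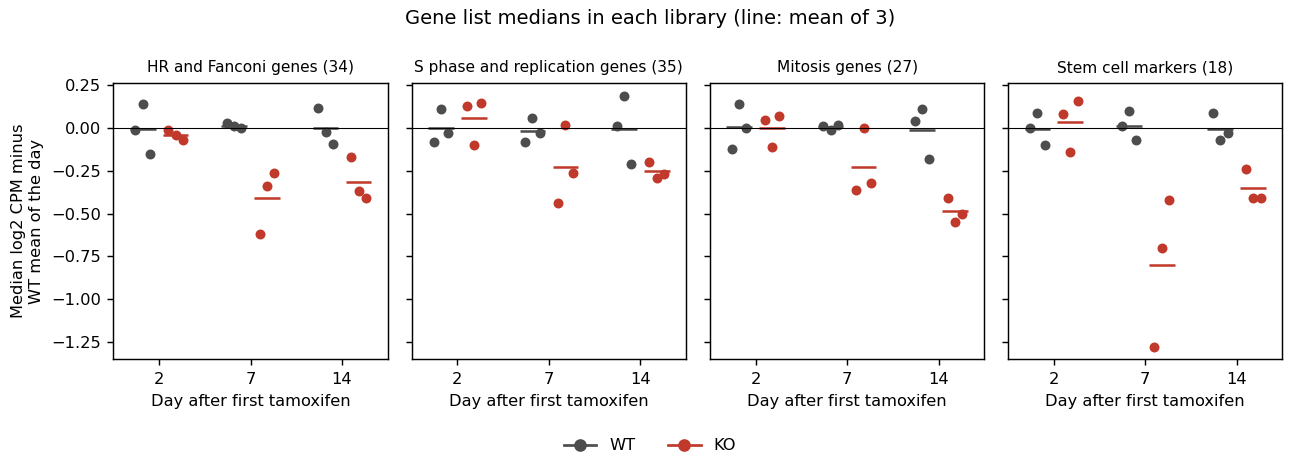
Median over the genes of a list of log2 CPM minus the WT mean of the same day (y axis) in each library, by day (x axis), WT grey and KO red, with a line at the mean of 3. At day 7 the KO libraries lie at -0.62 to -0.26 for the 34 genes, -0.44 to 0.02 for S phase genes, -0.36 to 0 for mitosis genes and -1.28 to -0.42 for stem cell markers.

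Targets of p53, the damage-response factor that ATM, ATR and the CHK kinases act on, had 12 of 25 genes called higher at day 7, beside 7.11% of all genes, and 1 called lower, beside 10.2% (Rrm2b at -0.56, named after its value was seen), with a median of 0.45. The other 12 were called in neither direction. At day 2 18 of the 25 were not below zero (median 0.32), and the library medians were 0.19 to 0.45 in KO and -0.13 to 0.16 in WT, without overlap. Phlda3, the only one called then, was higher at day 2 (2.37, adjusted p = 0.0401) and was at 2.07 (adjusted p = 0.0015) at day 7, and Ddit4l was at 2.69 (adjusted p = 0.00375). At day 14 a single one of the 25 was called, in the lower direction, and the median was 0.08.

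Reads were counted without regard to strand and could be given to more than 1 gene, so overlapping genes share reads. Of the 34 genes 16 share exon bases with another gene, 10 of them over more than 5% of their length. Rad54b shares 35.8% with Fsbp on the same strand, Fancc 16.4% with Gm16133, Fanci 16% with Polg, Rad54l 15.4% with Lrrc41, Fancf 15% with Gas2, Fancl 13.7% with Vrk2, Fanca 10.5% with Zfp276 and Rmi1 5.02% with Hnrnpk. The shared bases do not give the shared reads: Polg (mean count 1580) had more reads than Fanci (370), and Hnrnpk (6050) than Rmi1 (590). How many reads of these members come from the other gene was not measured, and their values are uncertain. Brca2 (0.301%) and Fance (3.26%) share few bases, and Rad50, Rad51c, Rad51d, Bard1, Brca1 and Chek1 share none. The 16 genes called lower at day 7 had a median exon length of 5517 bases and the other 18 one of 6955 bases.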

How the data were processed

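Counts per gene were deposited by the authors in a single table for all 18 libraries. According to the methods, total RNA of crypts was ribodepleted, sequenced as paired ends and mapped to mm10 with STAR (2.7.3), and featureCounts (1.6.4) counted reads per gene. The file header names GENCODE M23 and the methods a later release. Reads were unstranded, multi-mapped reads were not counted and reads over several genes went to each. Groups and replicate numbers were taken from sample titles. In R 4.3.3, 20 genes that the study listed as sex-specific were left out, genes were filtered with filterByExpr, and 21349 were tested with edgeR 4.0.16 (TMM, quasi-likelihood test, 1 mean per group, all 18 libraries, Benjamini-Hochberg over all genes, threshold 0.05). Mice of both sexes were used, matched between KO and control according to the paper, and the fit had no term for sex. SE is the log2 fold change over the root of F. CPM use TMM library sizes, and log2 CPM a prior count of 2. DESeq2 1.42.0, other filters and scalings, and leaving out libraries were alternatives. Code was tested on simulated data. Members and lists were chosen with earlier results of these data known. All 34 members are accounted for. Those called at day 7 or 14, at most 4 per role, are given with every library value, fold change, SE and adjusted p of day 7. At day 14 they are given at least by fold change and adjusted p. Of each other list the 2 with the largest change called at day 7 are named.

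Library totals of 12844642 to 31493484 set the precision. Replicates are separate mice, and no 2 libraries of a group agreed within sampling noise. Replicate numbers are shared by KO and WT. Deviations of same-numbered libraries correlated at 0.05, 0.16 and 0.38 at day 2, -0.16, 0.21 and 0.08 at day 7 and 0.23, 0.18 and 0.16 at day 14, so only at day 14 did every pair pass 0.1. The values given come from the fit without a replicate block, and the block was an alternative. Sequences and start sites come from RefSeq (GRCm38.p6), exons from GENCODE of the same build, read with Python 3.11.15.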

Additional observations from a re-analysis of the deposited data

Results flagged for a closer look

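The KO effect differed between days 2 and 7 by the edgeR interaction test for 3 of the 34 genes. The difference, day 7 minus day 2 on the log2 scale, was -1.68 for Brca2, -1.37 for Fance and -1.08 for Rad50. At day 2 the KO effects themselves were -0.19, 0.04 and 0.00. In WT crypts Fance was 0.47 higher at day 7 than at day 2 (adjusted p = 0.09), and in KO crypts its mean was 10.6 ± 0.693 CPM at day 2 and 5.66 ± 0.943 CPM at day 7 (SD, n = 3).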

How the results depend on the processing

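Over the alternatives tried, the medians of the 34 genes at days 7 and 14 and the count of genes called lower at day 14 stayed within 1.5 times or 1 SD. With only the libraries of the groups compared, 9 genes were called lower at day 7. With no filter, with a mean count of at least 50, or with the 20 most abundant genes left out, 1 was called higher at day 7. DESeq2 called 1 gene higher in the change from day 2 to day 7, 3 in WT at day 7 against day 2 and 1 in WT at day 14 against day 2. With no filter 1, and with a mean count of at least 50 1, was called in WT at day 7 against day 2, and with the latter also 1 in WT at day 14. Leaving out 1 library of the days compared gave 5 to 15 genes called lower at day 7 and 0 to 3 higher, 0 to 1 higher in the change from day 2 to day 7 and in WT at day 14 against day 2, and a day 2 median of -0.11 to 0.04. The only reversal was Brca1 at day 14, never called, at -0.03 to 0.28. For single genes, 265 refits kept call and direction under other settings, 17 lost the call and 4 gained it. With 1 library left out 161 kept them, 53 lost the call, 1 gained it and 1 reversed. These refits cover the 18 genes called at day 7, on both days, though only 9 of them were called at day 14. A result that was not called and stayed so counts as kept, and only refits of called results could lose a call. With the replicate block the counts were 16 lower and 2 higher at day 7 and 9 lower at day 14. None of the 36 single-gene results, called or not, changed call or direction. Why counts moved was not tested, beyond fewer libraries. Low counts limit Rad51c, which the minimum of 50 removes.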
